A study of Mus musculus with 12 samples.

Results

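The 78 mitochondrial ribosomal protein genes were taken as every symbol that starts with Mrpl or Mrps followed by a number and at most 1 of the letters a to c, and that was listed in both deposited count tables. They are 78 of the 27821 features listed in either table. Pseudogenes and numbered copies of a symbol were left out. By the standard naming of the ribosome's proteins, 51 of them belong to the large subunit, 26 to the small subunit, and Mrps36 is now placed in the 2-oxoglutarate dehydrogenase complex despite its symbol. All 78 passed the filter on low counts in both tables, so every one was tested.

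Mitochondria carry their own ribosomes, which translate the few messenger RNAs encoded in mitochondrial DNA. These messages encode core subunits of the respiratory chain and of ATP synthase. The proteins of the mitochondrial ribosome are encoded in the nucleus, made in the cytosol and imported, and some have counterparts in bacterial ribosomes whereas others are specific to mitochondria. White adipocytes hold less respiratory capacity than brown adipocytes, but fat storage and release in them depend on mitochondrial metabolism.

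The study sequenced 12 mRNA libraries to compare mouse fat with and without Xap5, a nuclear protein encoded by Fam50a. White adipose tissue (WAT) was taken on day 42 from WT mice and from cKO mice, in which Xap5 was deleted in mature adipocytes by Cre under the adiponectin promoter, so the other cells of the tissue keep the gene. Adipocytes of WT and KO genotype were taken on day 8 of induction, having been grown from pre-adipocytes of the subcutaneous fat of newborn WT or cKO pups. Each of the 4 groups held 3 libraries, and the labels do not say whether these were separate animals or cultures, so each p-value covers only the spread among the 3 libraries, which may be technical. The depot of the WAT samples and the sex of the mice are not given in the labels used here.

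Total counts per library were 28844370 to 33997204 in WAT and 10863158 to 21773610 in culture. Levels below are counts per 1000000 (CPM) after TMM scaling, computed separately for WAT and culture, and a gene is called where the Benjamini-Hochberg adjusted p of edgeR's quasi-likelihood test is under 0.05. Fam50a itself had 35.3, 32.5 and 36.5 CPM in the WT libraries of WAT, above the 23.3, 16.8 and 28.9 CPM of the cKO libraries. Its log2 fold change was -0.60 (adjusted p = 0.0395), but it was 0.09 with scaling by library size only and -0.21 with a trend of transcript length and GC content removed (adjusted p = 0.422). It also did not pass without WT replicate 1, 2 or 3 or cKO replicate 1 (adjusted p from 0.0756 to 0.108). In culture Fam50a had 57.9, 52.0 and 45.2 CPM in WT and 46.2, 42.9 and 41.1 CPM in KO, groups that overlapped, and the change of -0.26 was not called (adjusted p = 0.134). Reads from outside the deleted part may be counted too, so these values do not settle the genotype labels.

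In cKO WAT the mitochondrial ribosomal protein genes fell almost as a whole. The test called 71 of the 78 lower and 0 higher, against 24.2% of all 16293 genes tested called lower and 28.2% called higher. Their median log2 fold change was -0.95, beside 0.12 for all genes tested, and 34 members fell by at least 2-fold, as did 12.1% of all genes. In 73 members all 3 cKO libraries lay below all 3 WT libraries, which held for 29.3% of all genes, and in 0 they lay above, which held for 35.1%. This was counted after TMM scaling, whose factors themselves split by group, at 0.781 to 0.796 in WT and 1.23 to 1.30 in cKO. All CPM values of WAT carry these factors, and the same count with library size scaling is not given here. Scaling by library size only moved the median of all genes from 0.12 to 0.80 and left 25 members lower and 2 higher, against 8.76% and 54.2% of all genes. The members' log2 fold changes then ranged from -1.03 to 0.95, so the 34 falls of at least 2-fold hold for TMM scaling only. The members' median then was -0.27, and their distance to the median of all genes was -1.08 on that scale and -1.07 with TMM. A change of scaling moves all genes by nearly the same amount, so this distance could hardly differ and is no check on the calls.

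**Figure D1:**
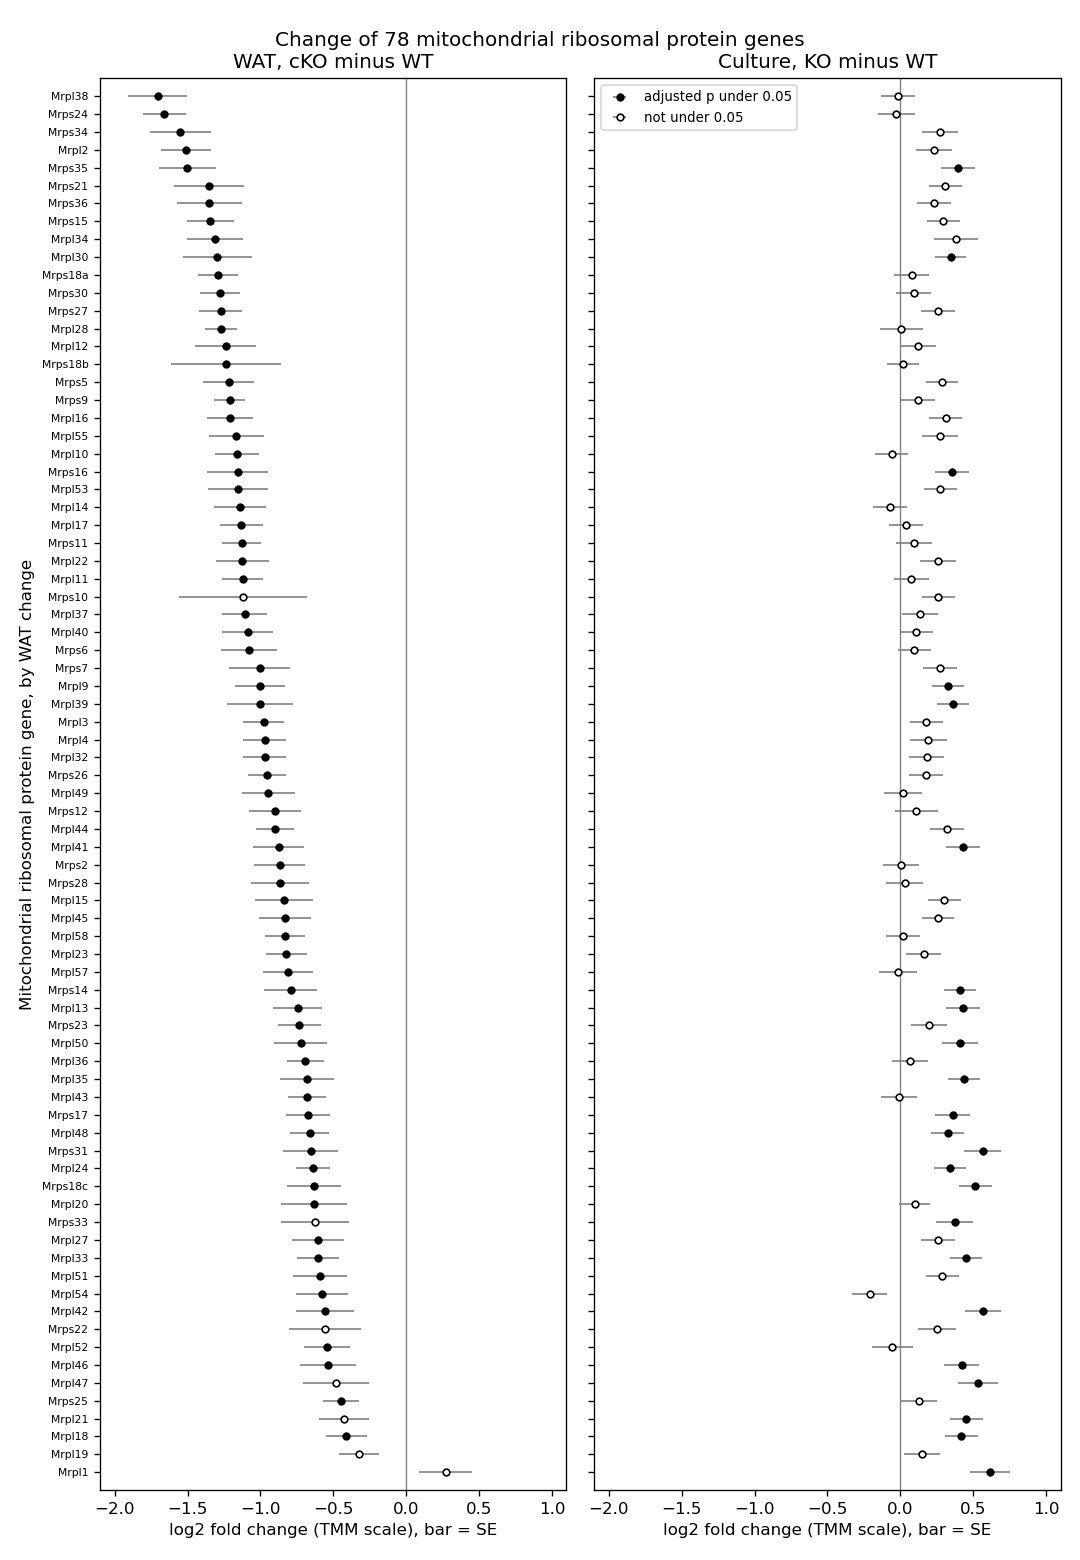
Log2 fold change of each of the 78 members (x axis, TMM scale, bars are SE) in WAT on the left and in culture on the right, with members ordered by their WAT change (y axis) and filled points for an adjusted p under 0.05. In WAT only Mrpl1 lies above 0, whereas with library size scaling 25 members are called lower and 2 higher. In culture most points lie above 0 and 23 are filled.

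The largest falls were spread over both subunits. Mrpl38, a mitochondria-specific protein of the large subunit, had 182, 170.1 and 161 CPM in the WT libraries and 44.3, 69.1 and 44.1 CPM in the cKO libraries. The groups were far apart, and cKO replicate 2 was the highest of the cKO libraries. The log2 fold change of Mrpl38 was -1.70 (SE 0.20, adjusted p = 0.000909). Mrps24, the counterpart of bacterial protein S3 at the messenger RNA entry of the small subunit, had 132, 118 and 118 CPM in WT and 37.7, 45.3 and 33.7 CPM in cKO. Mrps24 fell by 1.66 on the log2 scale (SE 0.15, adjusted p = 0.000548). Mrps34, a mitochondria-specific small subunit protein, had 145, 143 and 144 CPM in WT and 42.5, 66.1 and 39.3 CPM in cKO. Its WT libraries hardly differed, and it fell by 1.55 (SE 0.21, adjusted p = 0.00136).

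Mrpl2, the counterpart of bacterial L2 near the site of peptide bond formation, had 158, 165 and 144 CPM in WT and 52.5, 67.0 and 44.9 CPM in cKO. It fell by 1.51 on the log2 scale (SE 0.17, adjusted p = 0.000828). Mrps35, again specific to mitochondria, had 85.4, 97.9 and 93.9 CPM in WT against 27.5, 42.7 and 27.8 CPM in cKO, a log2 fold change of -1.50 (SE 0.20). Mrps21, which carries the name of bacterial S21, had 143, 144 and 121 CPM in WT and 55.4, 69.2 and 35.6 CPM in cKO. Mrps15, the counterpart of bacterial S15, had 136, 140.1 and 145 CPM in WT and 54.3, 66.3 and 45.1 CPM in cKO. The log2 fold changes of Mrps21 and Mrps15 were -1.35 and -1.34, with adjusted p of 0.00355 and 0.000926. Mrps36, of the 2-oxoglutarate dehydrogenase complex, changed as strongly at -1.35, from 83.1, 72.2 and 69.8 CPM to 29.3, 38.2 and 20.9 CPM. These 8 members kept their calls under each alternative run, library size scaling and every left-out library included. The sizes above are on the TMM scale. With library size scaling the lowest log2 fold change of any member was -1.03. The other 63 members called lower had log2 fold changes from -1.31 (Mrpl34) to -0.41 (Mrpl18), with adjusted p from 0.000527 to 0.0494.

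Both subunits, and proteins of both evolutionary origins, were represented among the WAT calls. Of the large subunit 47 of 51 were called lower, with a median of -0.88, and of the small subunit 23 of 26, with a median of -1.04. Proteins with a bacterial counterpart were lower in 40 of 45 cases (median -0.98), and mitochondria-specific ones in 30 of 32 (median -0.85). No test of these differences was made. The summed counts of the large subunit members were 2.27, 2.23 and 2.21 times those of the small subunit in WT WAT and 2.40, 2.32 and 2.46 times in cKO WAT. This ratio does not depend on the scaling, and its groups did not overlap, although they lay close together.

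The 7 members that did not pass in WAT were Mrpl1, Mrpl19, Mrpl21, Mrpl47, Mrps10, Mrps22 and Mrps33. Mrpl1, which forms the stalk that guides the spent transfer RNA away, was the only member with a point estimate above 0. It had 14.2, 11.2 and 13.3 CPM in WT and 15.5, 18.0 and 13.2 CPM in cKO, groups that overlapped, with a log2 fold change of 0.27 (SE 0.18, adjusted p = 0.241). With library size scaling Mrpl1 was called higher, at 0.95 (adjusted p = 0.00321). Mrpl19 had 31.0, 36.4 and 39.3 CPM in WT and 26.5, 31.2 and 27.5 CPM in cKO, overlapping by 1 library, and its log2 fold change was -0.33 (adjusted p = 0.0820), but with library size scaling it was 0.35 (adjusted p = 0.0484). Mrpl18, whose bacterial counterpart lies in the central protuberance of the large subunit, showed the smallest fall that was called, from 72.6, 73.4 and 77.6 CPM to 53.6, 65.9 and 48.7 CPM. Its log2 fold change was -0.41 (adjusted p = 0.0434), and the call was lost without any 1 library other than cKO replicate 2 (adjusted p up to 0.131).

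Mrps10, the counterpart of bacterial S10, is a case where the counting matters. The WAT table lists 8 numbered copies of 6 member symbols, which are not listed for the cultures. Mrps10 itself had 28.5, 38.7 and 18.0 CPM in WT and 20.3, 12.6 and 6.32 CPM in cKO, which overlapped, and its change of -1.12 did not pass (adjusted p = 0.0667). Its numbered copy had 984, 878 and 1319 counts in WT and 925, 1786 and 1240 counts in cKO. With the copies summed into their symbols, Mrps10 was called lower at -0.73 (adjusted p = 0.0131). Reads of such copies cannot be assigned with certainty, and the values of Mrpl22, Mrpl40, Mrps10, Mrps18b, Mrps23 and Mrps35 in WAT carry that uncertainty. A further limit is that 25 members overlap another annotated gene, 20 of them a protein-coding one, and the strand setting of the counting is not given in the sources used here.

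**Figure D2:**
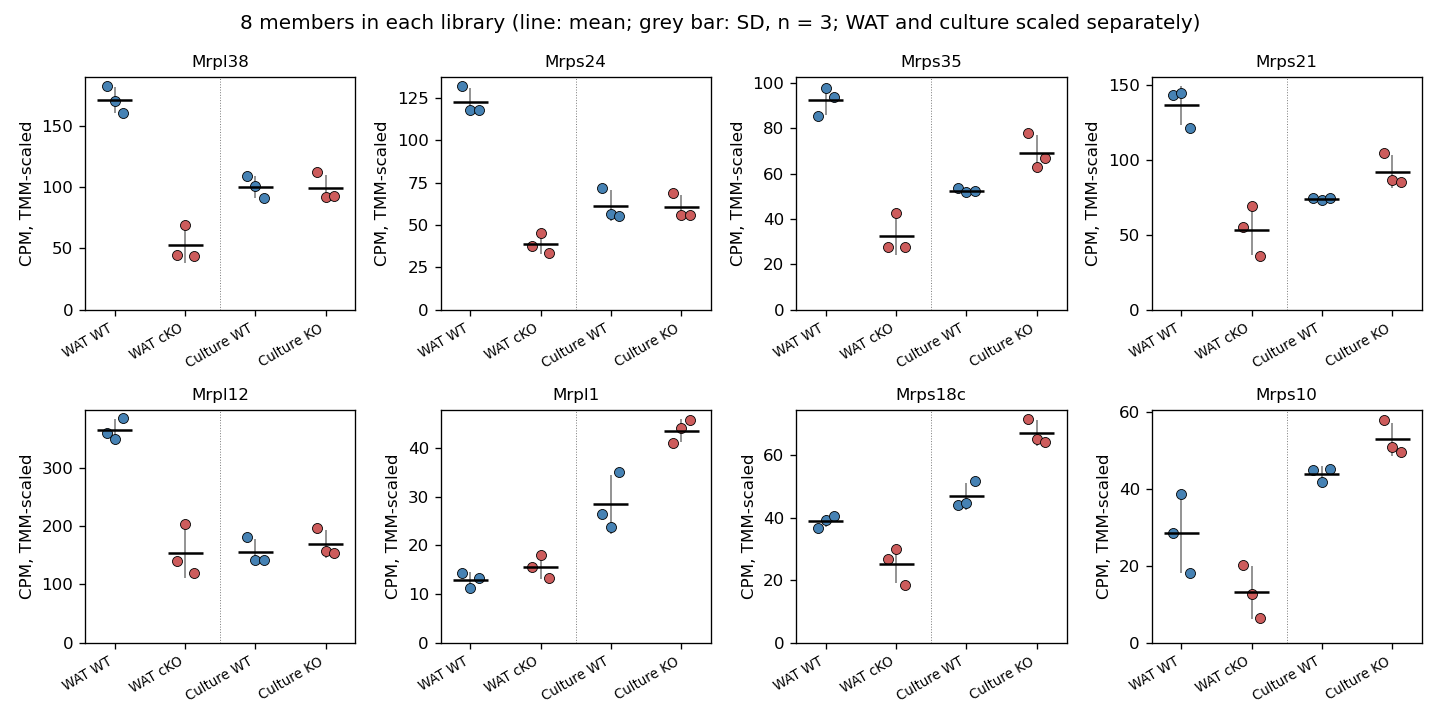
CPM after TMM scaling (y axis) of 8 members in each library of the 4 groups (x axis), with the mean as a line and the SD as a grey bar (n = 3). Mrpl38, Mrps24, Mrps35, Mrps21 and Mrpl12 separate in WAT on this scale, Mrps18c and Mrpl1 separate in culture, and Mrps10 overlaps in WAT.

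Promoter sequences were compared because 71 members were called in the same direction. RefSeq windows of 300 bases, from 250 before to 50 after a start site in GRCm38.p6, were matched by symbol for 69 of the 78 members, 75 windows in all. The word GCGCATGCG, of nuclear respiratory factor 1, stood on either strand in 9.33% of member windows and 1.75% of all 32851 windows. The word CCGGAAG, of ETS factors such as GABP, stood in 34.7% against 8.86%, and AAGATGGCG, of YY1, in 10.7% against 1.40%. At least 1 of the 3 words stood in 48.0% of member windows and 11.4% of all windows, 5 member windows held 2 of them, and no matches of different words overlapped there. All windows together belong to 27025 genes, more than the 16293 tested in WAT, whereas every member was tested. Shares over the tested genes alone are not given here. Member windows were also richer in G and C, with a median of 58.7% against 52.7%, and these shares are descriptions of letters, not of bound factors. Mrps24, which had 1 of the largest falls, and Mrpl10, part of the base of the stalk that recruits translation factors, are shown as examples with the matched word in capitals, Mrps24 at chr11:5707652-5707951 on the minus strand (YY1 word) and Mrpl10 at chr11:97041332-97041631 on the plus strand (nuclear respiratory factor 1 word, reverse complement).
Mrps24: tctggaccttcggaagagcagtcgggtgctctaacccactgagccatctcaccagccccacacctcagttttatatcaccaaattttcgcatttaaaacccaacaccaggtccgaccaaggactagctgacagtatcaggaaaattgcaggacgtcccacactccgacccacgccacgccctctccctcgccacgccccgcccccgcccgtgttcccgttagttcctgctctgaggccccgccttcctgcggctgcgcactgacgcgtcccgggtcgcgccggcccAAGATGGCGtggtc
Mrpl10: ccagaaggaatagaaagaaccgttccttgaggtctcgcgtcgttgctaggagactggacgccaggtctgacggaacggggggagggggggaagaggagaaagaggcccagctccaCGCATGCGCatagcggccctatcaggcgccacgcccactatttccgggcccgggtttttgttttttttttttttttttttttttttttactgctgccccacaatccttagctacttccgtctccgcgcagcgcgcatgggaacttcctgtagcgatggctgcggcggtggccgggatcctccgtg

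In WAT Mrpl10 had 176, 188 and 178 CPM in the WT libraries, well apart from 75.6, 96.7 and 70.4 CPM in the cKO libraries, a log2 fold change of -1.16 (adjusted p = 0.00118). In culture it had 53.0, 54.2 and 48.7 CPM in WT and 52.4, 49.8 and 47.7 CPM in KO, and no change was called (log2 -0.06, adjusted p = 0.756).

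Many members share a promoter region with a gene on the other strand. A start on the opposite strand within 500 bases upstream was found for 23 of the 69 members with a window (33.3%), against 10.9% of all 27025 genes with a window. Of the 21 such neighbours that were tested in WAT, 8 were called lower, 2 of which are members themselves, and 3 higher, beside the 24.2% and 28.2% of all genes. The 27025 genes with a window include untested ones, and the share with such a start over tested genes alone is not given here. Mrps11 and Mrpl46, a small and a large subunit gene, start 42 bases apart. In WAT Mrps11 went from 51.1, 53.2 and 48.6 CPM to 21.2, 26.9 and 21.9 CPM, a log2 fold change of -1.13 (adjusted p = 0.000913). Mrpl46 went from 37.1, 32.8 and 43.9 CPM to 27.6, 30.8 and 20.1 CPM, a change of -0.54 that passed narrowly (adjusted p = 0.0494), that was lost without any 1 library other than cKO replicate 2, and that was 0.14 with library size scaling. In culture only Mrpl46 was called, at 0.42 (adjusted p = 0.0190), and Mrps11 was at 0.09 (adjusted p = 0.632). Their difference within a comparison was not tested. Mrps12, the counterpart of bacterial S12 at the decoding site, starts 147 bases from Sars2, the mitochondrial seryl-tRNA synthetase, and both were lower in cKO WAT, at -0.90 and -0.91.

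The shared regions are shown for Mrps11 (chr7:78782881-78783180, plus strand, YY1 word as its reverse complement), Mrps12 (chr7:28741772-28742071, minus strand, ETS word) and Mrpl27 (chr11:94653541-94653840, plus strand, ETS word), each with the matched word in capitals.
Mrps11: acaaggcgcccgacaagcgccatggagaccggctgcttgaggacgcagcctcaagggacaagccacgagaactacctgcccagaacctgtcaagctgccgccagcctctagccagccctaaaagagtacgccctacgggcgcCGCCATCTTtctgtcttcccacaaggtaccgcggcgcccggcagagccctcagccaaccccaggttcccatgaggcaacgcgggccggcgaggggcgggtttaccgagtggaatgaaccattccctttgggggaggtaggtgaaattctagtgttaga
Mrps12: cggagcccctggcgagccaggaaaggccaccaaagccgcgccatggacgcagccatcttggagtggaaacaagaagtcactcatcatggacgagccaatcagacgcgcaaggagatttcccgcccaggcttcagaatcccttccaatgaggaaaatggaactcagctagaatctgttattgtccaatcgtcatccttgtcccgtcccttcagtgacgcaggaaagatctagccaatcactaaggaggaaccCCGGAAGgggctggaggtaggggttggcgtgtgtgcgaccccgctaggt
Mrpl27: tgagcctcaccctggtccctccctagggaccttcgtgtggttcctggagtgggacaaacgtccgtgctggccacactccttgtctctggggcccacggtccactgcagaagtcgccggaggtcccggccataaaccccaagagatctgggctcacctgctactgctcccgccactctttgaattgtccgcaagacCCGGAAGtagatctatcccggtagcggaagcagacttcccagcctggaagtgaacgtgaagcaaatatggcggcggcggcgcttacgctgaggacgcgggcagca

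Mrpl27, the counterpart of bacterial L27 at the site of peptide transfer, starts 48 bases from Eme1, a subunit of a DNA repair nuclease. In WAT Mrpl27 went from 87.1, 91.7 and 90.1 CPM to 57.6, 73.3 and 45.8 CPM, a log2 fold change of -0.61 (adjusted p = 0.0247), and the call was lost without WT replicate 1, 2 or 3 or cKO replicate 1 (adjusted p up to 0.0769). Its neighbour Eme1, named after its value was seen, went the other way at 3.39 (adjusted p = 0.00424). The annotated genes overlap by 67 bases, so reads in that stretch cannot be assigned.

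The share of all counts held by the 78 members, which needs no scaling factor, was 0.565%, 0.583% and 0.574% in WT WAT and 0.443%, 0.543% and 0.392% in cKO WAT. The groups did not overlap, and cKO replicate 2 lay closest to WT. Adipocyte markers followed the same order of libraries: 10 of 10 were listed above 0 in every group, and they summed to 2.85% to 2.95% of counts in WT and to 1.55%, 2.49% and 1.15% in cKO replicates 1 to 3. Macrophage markers, also 10 of 10 above 0, made up 0.0326% to 0.0511% of counts in WT and 0.480%, 0.234% and 0.539% in cKO. The test called 8 of 10 adipocyte markers lower and 9 of 10 macrophage, 7 of 10 fibroblast and 4 of 4 dividing cell markers higher. Brown and beige fat markers, of a cell type rich in mitochondria, were all 5 above 0 in every group and summed to 855 to 1519 counts per 1000000 in WT and 83.0 to 529 in cKO, with 2 of 5 called lower on either scaling. Skeletal muscle markers varied widely among libraries, reaching 1140 counts per 1000000 in WT and spanning 57.2 to 1422 in cKO. Mammary epithelium markers summed to 1.61 to 21.3 in WT and 0.754 to 804 in cKO. The test called 1 of 5 muscle markers higher and 0 of 4 mammary markers. The WAT libraries thus also differed in markers of other tissues. Endothelial markers were lower in 5 and higher in 1 of 8 cases, but lower in 1 and higher in 2 with library size scaling. In bulk tissue, fewer adipocytes and less RNA per adipocyte cannot be told apart, and the part of the cell makeup in the members' fall was not tested.

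**Figure D3:**
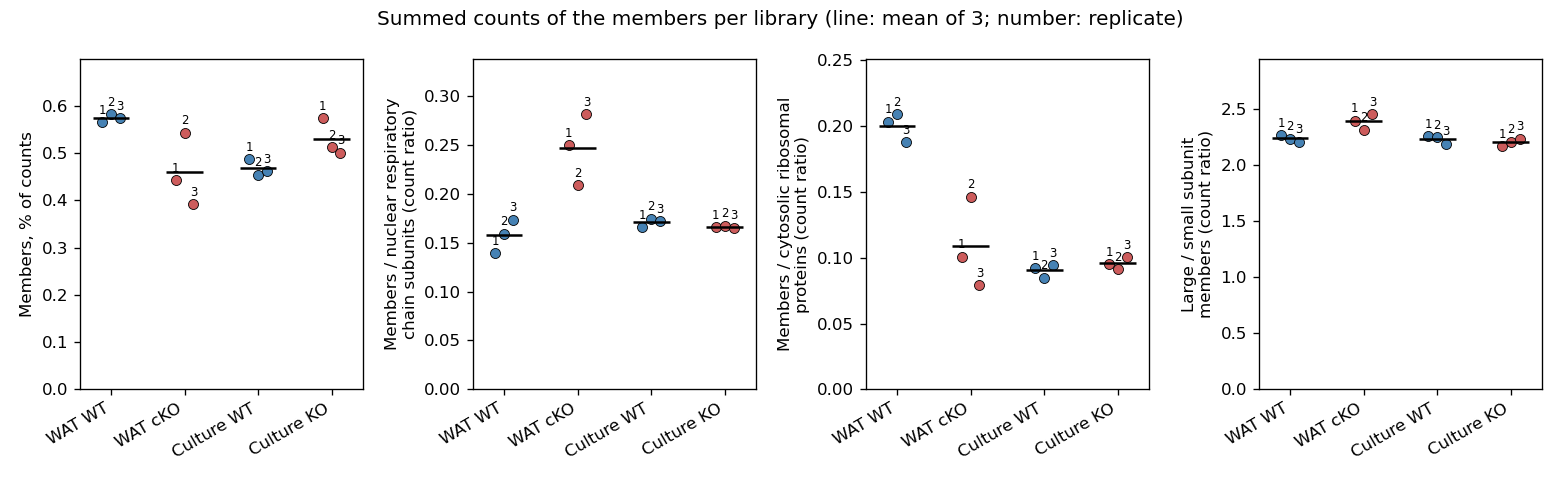
Summed counts of the members in each library (points, numbered by replicate; line, mean of 3) by group (x axis): as % of all counts, over the summed counts of the nuclear respiratory chain subunits, over those of the cytosolic ribosomal proteins, and large over small subunit members (y axes). The cKO WAT libraries lie below WT in the share of counts and in the ratio to cytosolic ribosomal proteins, and above WT in the ratio to the respiratory chain and in the ratio of the subunits.

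The members were also set beside the respiratory chain, part of which their ribosome translates, and beside the cytosolic ribosome. Their summed counts were 0.139, 0.159 and 0.174 of those of 73 nuclear respiratory chain subunits in WT WAT and 0.250, 0.209 and 0.282 in cKO WAT. Over 79 cytosolic ribosomal proteins the ratios were 0.204, 0.209 and 0.188 in WT and 0.101, 0.147 and 0.0790 in cKO. Both ratios are free of the scaling, and neither overlapped between the groups: in cKO WAT the members stood higher against the respiratory chain and lower against the cytosolic ribosome. In culture the first ratio was 0.166, 0.175 and 0.172 in WT and 0.166, 0.167 and 0.166 in KO, and the second was 0.0922, 0.0849 and 0.0945 in WT and 0.0953, 0.0915 and 0.101 in KO.

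With TMM scaling most genes of the lists for the rest of the mitochondrial translation system were called lower in WAT as well, but with library size scaling a minority was, apart from the 5 ribosomal proteins with other symbols (3 lower, 1 higher). Of all genes, 24.2% were called lower and 28.2% higher with TMM scaling, and 8.76% and 54.2% with library size scaling. Of the 5 ribosomal proteins with other symbols, 4 were called lower, with a median of -1.17. Gadd45gip1, a large subunit protein near the peptide exit, went from 81.4, 79.5 and 78.5 CPM to 31.3, 38.0 and 31.5 CPM, a log2 fold change of -1.25 (adjusted p = 0.000637). Aurkaip1 was at -1.30, Dap3, the GTP-binding protein of the small subunit, at -1.17 and Chchd1 at -0.86 (adjusted p = 0.000730, 0.00136 and 0.00347). With library size scaling Chchd1 was at -0.18 and not called (adjusted p = 0.304). Ptcd3, a pentatricopeptide repeat protein of the small subunit, did not pass at -0.22 (adjusted p = 0.279), and with library size scaling it was called higher at 0.45 (adjusted p = 0.0377).

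Assembly factors of the ribosome were lower in 21 and higher in 0 of 26 cases, with a median of -0.83. Mtg1, a GTPase of large subunit assembly, went from 77.8, 81.7 and 59.2 CPM to 19.9, 24.2 and 20.5 CPM, a log2 fold change of -1.76 (adjusted p = 0.000604). Nsun4, a methyltransferase of the small subunit's ribosomal RNA, was at -1.39 (adjusted p = 0.000753). Of these 26, 6 were lower and 4 higher with library size scaling. Translation factors were lower in 11 and higher in 2 of 18 cases: Tufm, the elongation factor that delivers aminoacyl-tRNA, was at -1.31 (adjusted p = 0.00123), and Oxa1l, which inserts the new proteins into the inner membrane, at -1.12 (adjusted p = 0.000910). Mtif2, the initiation factor, was called higher, from 10.5, 7.80 and 7.85 CPM to 15.3, 18.1 and 16.1 CPM, at 0.92 (adjusted p = 0.00592). Of the 18 translation factors 2 were lower and 4 higher with library size scaling.

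Mitochondrial aminoacyl-tRNA synthetases, which charge the transfer RNAs, were lower in 17 and higher in 0 of 20 cases, with a median of -0.88, led by Vars2 at -1.57 and Tars2 at -1.33 (adjusted p = 0.000604 and 0.000633). Of these 20, 7 were lower and 2 higher with library size scaling. The 12 genes of mitochondrial DNA transcription and replication split into 6 lower and 2 higher, with Top1mt, a mitochondrial topoisomerase, at -1.22 (adjusted p = 0.00360) and Mgme1, a nuclease of replication, at -0.73 (adjusted p = 0.00447). With library size scaling 0 of the 12 were lower and 5 higher, their median moved from -0.34 to 0.34, and Top1mt was not called at -0.54 (adjusted p = 0.0511), nor was Mgme1 at -0.06 (adjusted p = 0.735). Among 10 regulators of mitochondrial biogenesis 1 was lower and 4 were higher. Esrra, a nuclear receptor that drives genes of oxidative metabolism, was lower at -1.03 (adjusted p = 0.000950), and Myc was higher at 1.32 (adjusted p = 0.00340). Protein import was lower in 18 and higher in 1 of 29 cases, with Timm13 at -1.38 (adjusted p = 0.000876), and the respiratory chain in 71 and 0 of 73, with Ndufb10 at -1.75 (adjusted p = 0.000527). With library size scaling protein import was lower in 2 and higher in 5, the respiratory chain lower in 52 and higher in 1, and the biogenesis regulators lower in 1 and higher in 6. On that scale 8.76% of all genes were lower and 54.2% higher, so the regulators called higher lay near the share of all genes. Cytosolic ribosomal proteins, at a median of -0.03, were lower in 9 and higher in 6 of 79 cases, but with library size scaling 1 was lower and 58 were higher. Rps28, with the smallest p of them, rose by 4.84 (adjusted p = 0.000604), but with its numbered copies summed it was at -0.09 (adjusted p = 0.755).

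**Figure D4:**
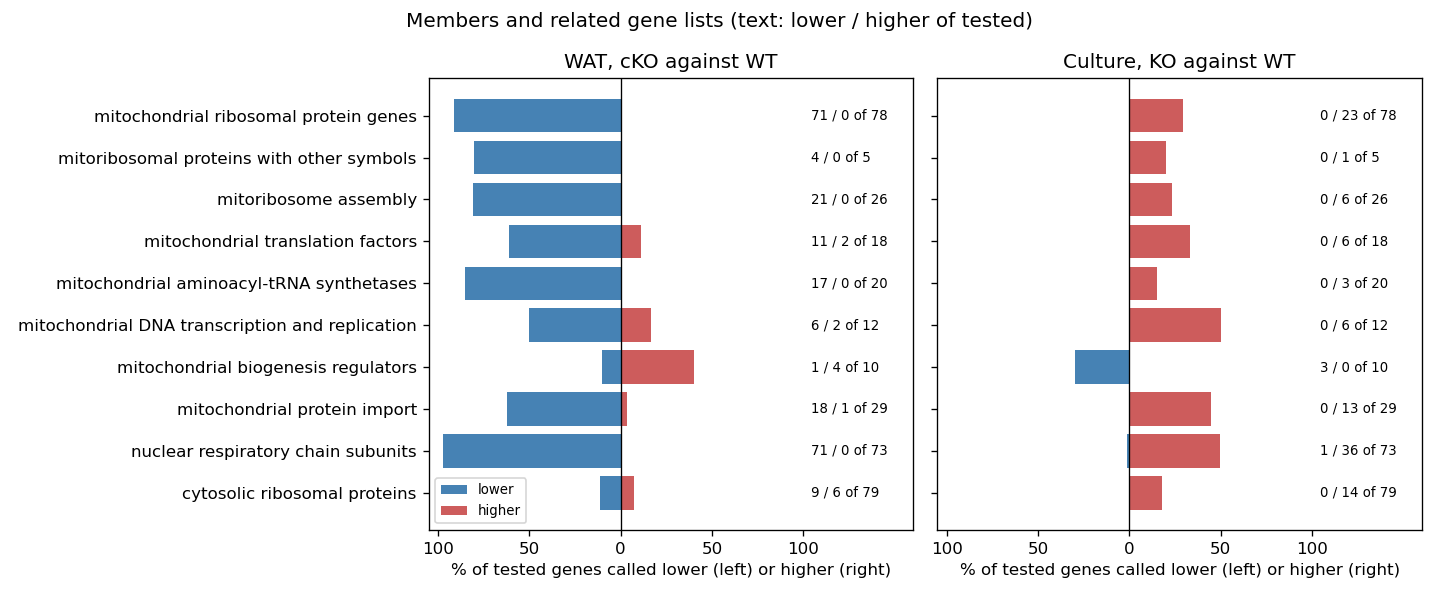
Share of the tested genes of each list (y axis) called lower (left of 0) or higher (right of 0), in % (x axis), in WAT and in culture with TMM scaling, with the counts printed at the right. In WAT 71 of 78 members are lower, whereas with library size scaling 25 are lower and 2 higher. In culture 23 of 78 are higher.

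In culture the members moved in the opposite direction and by less. The test called 23 of 78 higher and 0 lower, against 8.94% of all 12587 genes called higher and 10.6% called lower, and 39 members had an unadjusted p under 0.05. Their median log2 fold change was 0.26, beside -0.02 for all genes. In 42 members all 3 KO libraries lay above all 3 WT libraries, against 18.0% of all genes, in 0 they lay below (18.8% of all genes), and in 36 the groups overlapped. Mrpl1 was the 1 member called with a rise of at least 1.5-fold, which held for 2.39% of all genes. With library size scaling 15 members were higher and 0 lower, against 6.24% and 14.0% of all genes. The count of 23 depended on single libraries: it was 5 without WT replicate 2, 12 without KO replicate 1 and 14 without KO replicate 2, and between 18 and 28 without any 1 of the other 3. With 1 fit over all 4 groups, where WAT and culture share 1 estimate of spread, 0 were called and 24 had an unadjusted p under 0.05. For the fits without a library, the joint fit and the unadjusted p, the shares over all genes are not given here. Whether these counts changed more than those of all genes was not tested.

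The 5 members that stayed called without any 1 library were Mrpl1, Mrpl33, Mrpl42, Mrps18c and Mrps31. Mrpl1, not called in WAT, had 26.4, 23.7 and 35.2 CPM in WT cultures and 41.0, 44.1 and 45.8 CPM in KO cultures. WT replicate 3 was the highest WT library and still below every KO library, and the log2 fold change was 0.62 (SE 0.14, adjusted p = 0.00314). Mrpl42, specific to mitochondria, had 70.5, 74.0 and 99.1 CPM in WT and 115, 118 and 128 CPM in KO, a change of 0.57 (SE 0.12, adjusted p = 0.00290). Mrps31, also specific to mitochondria, had 28.3, 27.9 and 36.9 CPM in WT and 44.7, 45.7 and 47.5 CPM in KO, again a change of 0.57 (SE 0.13, adjusted p = 0.00354). In both genes WT replicate 3 again stood nearest to KO. Mrps18c, 1 of the related proteins named after bacterial S18, had 44.2, 44.6 and 51.6 CPM in WT and 71.8, 65.2 and 64.1 CPM in KO, a change of 0.52 (SE 0.12, adjusted p = 0.00334). Mrpl33, a small protein of the large subunit, had 85.7, 83.2 and 87.8 CPM in WT and 130.1, 108 and 113 CPM in KO, a change of 0.45 (SE 0.11, adjusted p = 0.00678).

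Mrpl47, Mrpl21 and Mrpl35 were next, at 0.53, 0.45 and 0.44 (adjusted p = 0.00946, 0.00832 and 0.00825), but their calls were lost without WT replicate 2 (adjusted p = 0.0662, 0.0666 and 0.0622). The other 15 members called higher had log2 fold changes from 0.33 (Mrpl9) to 0.43 (Mrpl41). The large subunit gave 16 of the 23 calls (of 51) and the small subunit 7 (of 26), and bacterial counterparts and mitochondria-specific proteins gave 14 of 45 and 9 of 32. At the other end stood Mrps2, Mrpl43 and Mrpl28, with changes of 0.01, -0.01 and 0.01. Mrps2, the counterpart of bacterial S2, had 30.5, 28.5 and 28.6 CPM in WT and 27.6, 29.5 and 30.6 CPM in KO. Mrpl54 had the lowest change of all members, at -0.21, which did not pass (adjusted p = 0.222). The summed counts of the members were 0.487%, 0.454% and 0.462% of all counts in WT and 0.574%, 0.513% and 0.501% in KO, with KO replicate 1 highest.

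Other features of the KO cultures also differed from WT, some upward as the members and some downward. Adipocyte markers, 10 of 10 above 0, made up 1.64% to 1.81% of counts in WT and 2.32% to 2.70% in KO, and 6 of the 9 tested were called higher. Macrophage markers, 10 of 10 above 0, made up 0.287% to 0.315% in WT and 0.201% to 0.241% in KO, with 3 of 10 called lower. Brown and beige fat markers summed to 16.3 to 28.5 counts per 1000000 in WT and 43.6 to 51.5 in KO, with 3 of 5 called higher. Of the fibroblast markers 3 of 9 were called lower and 1 higher, and of the endothelial markers 3 of 8 lower. Mitochondrially encoded genes, which are listed for the cultures only, held 8.90%, 9.33% and 12.1% of counts in WT and 11.2%, 13.9% and 15.1% in KO. These groups overlapped, with WT replicate 3 above KO replicate 1. With these genes left out, 24 members were called higher, and with all culture libraries thinned to the smallest total the number was again 24. The part of the cell makeup in the members' rise was not tested.

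Related groups in culture gave calls mainly in the same direction as the members. Of all genes, 8.94% were called higher and 10.6% lower there, or 6.24% and 14.0% with library size scaling. Assembly factors were higher in 6 and lower in 0 of 26 cases, with Mrm2, a methyltransferase of the large subunit's ribosomal RNA, at 0.85 and the GTPase Mtg2 at 0.54 (adjusted p = 0.00543 and 0.00979). Mtg2 was not called without WT replicate 2 (adjusted p = 0.0636). Translation factors were higher in 6 of 18, including Mtif2 at 0.53 and the release factor Mtrf1l at 0.75 (adjusted p = 0.00475 and 0.00601), and aminoacyl-tRNA synthetases in 3 of 20, or 1 with library size scaling. Hars2, the synthetase for histidine, was at 0.38 (adjusted p = 0.0421), and its call was lost when any 1 library was left out. Mitochondrial DNA transcription and replication was higher in 6 of 12, with the transcription factor Tfb2m at 0.72 and the DNA-binding protein Ssbp1 at 0.52 (adjusted p = 0.000525 and 0.00472). With library size scaling assembly factors were higher in 4, translation factors in 4 and DNA transcription and replication in 5. With 1 fit over all 4 groups none of the genes named in this paragraph was called (adjusted p from 0.0558 to 0.1185).

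Of the 10 biogenesis regulators 3 were lower and 0 higher in culture. Myc went from 107, 108 and 85.1 CPM to 78.0, 70.3 and 79.7 CPM, at -0.39 (adjusted p = 0.0209), and Pprc1, a coactivator of nuclear respiratory genes, was at -0.45 (adjusted p = 0.0107). Without WT replicate 1, WT replicate 2 or KO replicate 2 neither was called (adjusted p from 0.0574 to 0.157). In WAT both were called higher, Myc at 1.32 and Pprc1 at 0.98. Protein import was higher in 13 of 29 with the chaperonin Hspe1 at 0.61 (adjusted p = 0.000500), the respiratory chain higher in 36 and lower in 1 of 73 with Ndufc2 at 0.82 (adjusted p = 5.53e-05), and the cytosolic ribosome higher in 14 of 79. Among the 5 ribosomal proteins with other symbols Chchd1 was called, at 0.51 (adjusted p = 0.00321). With library size scaling protein import was higher in 12, the respiratory chain higher in 27 and lower in 2, and the cytosolic ribosome higher in 10. With 1 fit over all 4 groups none of the culture calls of genes named in this paragraph was kept (adjusted p from 0.0650 to 0.262).

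Whether the effect in WAT differed from that in culture was tested with an interaction term on all 12 libraries. It was called in 75 of 78 members, all with the WAT effect lower, against 21.1% of the 14463 genes tested called lower and 27.7% called higher. Mrpl1, Mrpl52 and Mrpl54 did not pass. This fit gives WAT and culture 1 shared estimate of spread, with a common biological coefficient of variation of 0.227. In the separate fits that coefficient was 0.319 in WAT and 0.114 in culture, so these p-values do not reflect the wider spread of WAT alone. Of the 7 members not called in WAT, all but Mrpl1 were called here. The median difference was -1.13, beside 0.22 for all genes, and with library size scaling 40 members were called lower and 0 higher, against 8.28% and 50.7% of the genes. Mrps35 showed the largest of the 6 differences with the smallest p, at -1.86 (SE 0.22, adjusted p = 4.10e-05): it fell in WAT, while its 53.5, 51.8 and 52.4 CPM in WT cultures stood below 78.0, 62.9 and 66.7 CPM in KO cultures.

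Members called lower in WAT and also higher in culture numbered 19, which held for 3.07% of the genes tested in both. They were Mrpl9, Mrpl13, Mrpl18, Mrpl24, Mrpl30, Mrpl33, Mrpl35, Mrpl39, Mrpl41, Mrpl42, Mrpl46, Mrpl48, Mrpl50, Mrps14, Mrps16, Mrps17, Mrps18c, Mrps31 and Mrps35. Mrpl30 went from 232, 246 and 217 CPM to 90.0, 127 and 65.9 CPM in WAT and from 134, 150.4 and 153 CPM to 186, 186 and 184 CPM in culture. Mrps14 went from 91.3, 90.8 and 103 CPM to 51.5, 69.2 and 43.7 CPM in WAT and from 61.5, 60.2 and 63.2 CPM to 84.1, 79.5 and 82.1 CPM in culture. In both genes the groups were apart in WAT and in culture, in opposite order. With the trend of length and GC content removed the culture changes were 0.15 for Mrpl30 and 0.14 for Mrps14 and not called (adjusted p = 0.175 and 0.269), and with library size scaling neither were the culture change of Mrpl30 (adjusted p = 0.0571) and the WAT change of Mrps14 (-0.12, adjusted p = 0.561). The culture call of Mrpl30 was kept in 1 of the 6 fits that left out a library, and that of Mrps14 was lost without WT replicate 2 (adjusted p = 0.0652). The number was 4 without WT culture replicate 2, 9 without KO culture replicate 1, 11 without KO culture replicate 2 and 12 without cKO WAT replicate 1, and Mrpl33 alone was kept in every such fit. The number was 1 with library size scaling, and removing the trend of length and GC content gave 21, of which 9 were among the 19.

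**Figure D5:**
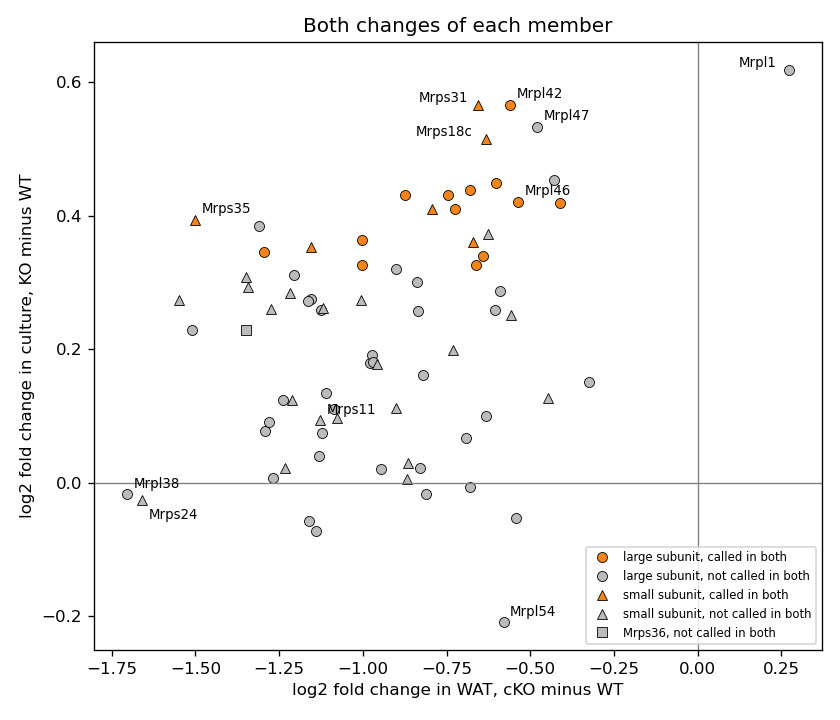
Log2 fold change of each member in WAT (x axis) and in culture (y axis), both on the TMM scale, by subunit (symbol) and by whether it was called in both (orange). The 19 members called in both lie at the upper left; with library size scaling 1 remained.

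Levels of different members were compared per length, as transcripts per 1000000 (TPM) computed from the counts and the longest annotated transcript. The medians over the 78 members were 75.0 in WT WAT, 65.8 in cKO WAT, 74.3 in WT culture and 89.0 in KO culture. The median member stood above 91.3% of the genes given a TPM in WT WAT. That set may include genes with too few counts to be tested, which would raise this share. The order was alike across groups, with Spearman's rho over the 78 members of 0.97 between WT and cKO WAT, 0.99 between WT and KO culture and 0.89 between WT WAT and WT culture. These are correlations across genes, which share libraries and lengths. Mrps21 was highest in WT WAT at 498 ± 48.0 (SD, n = 3), followed by Mrpl12 at 495 ± 26.2, which do not differ beyond their spread, and by Mrpl34 at 350.1 ± 27.4. Lowest were Mrpl1 at 6.48 ± 0.840, Mrpl47 at 9.66 ± 1.44 and Mrps10 at 12.4 ± 4.44, a range of 76.8-fold between the extremes. With the shortest protein-coding transcript Mrps21, Mrpl12 and Mrpl34 ranked 2, 8 and 16, and Mrpl1, Mrpl47 and Mrps10 ranked 76, 78 and 56 of 78.

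In WT culture Mrps21 at 390 ± 11.4, Mrpl20 at 374 ± 14.5 and Mrpl54 at 332 ± 22.3 were highest, and Mrps25 at 12.9 ± 1.41, Mrpl19 at 15.4 ± 1.20 and Mrpl47 at 17.3 ± 2.92 lowest. Mrps21 and Mrpl20 did not differ beyond their spread, nor did Mrpl19 and Mrpl47. This order rests on the longest transcript, of 6073 bases for Mrps25 and 5000 bases for Mrpl19. Ranks with the shortest transcript are not given here for culture. Mrpl12, which binds elongation factors at the stalk, fell in WAT from 360, 350 and 385 CPM to 141, 204 and 119 CPM, at -1.24 (adjusted p = 0.00296), and was at 0.12 in culture (adjusted p = 0.513).

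The change of a member followed the GC content of its transcript to a similar degree as over all genes. Spearman's rho between log2 fold change and GC content was -0.33 over the 78 members and -0.29 over all annotated genes in WAT, and -0.41 and -0.36 in culture. With transcript length rho was 0.20 over the members in both settings, beside 0.22 over all genes in WAT and -0.23 in culture. Member transcripts had a median length of 1866 bases, against 3360 bases for all genes tested in WAT. With a trend of length and GC content removed in each library, 59 members were lower and 0 higher in WAT, with a median of -0.71, against 26.3% and 23.1% of all genes. In culture 27 were then higher and 0 lower, against 10.0% and 9.99%, and the interaction was called lower in 62 and higher in 1, against 24.0% and 21.8%. Mrpl18, Mrpl46 and Mrpl54, called lower in WAT without that step, were at 0.06, 0.05 and 0.17 with it.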

How the data were processed

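Raw counts per gene were deposited by the authors as 1 table of WAT and 1 of the cultures. They are whole values with unequal totals. Per the labels' protocols, TRIzol RNA was made into libraries with an MGIEasy mRNA kit. HISAT2 2.1.0, cutadapt 1.11, FastQC 0.11.2 and the build GRCm38 stand in the submitters' processing notes, without their roles. Not given in the sources used here are the counting tool, annotation and strand setting.

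Groups came from the sample titles, and all sample columns were used. WAT and culture were fitted separately over all genes, 6 libraries each, by edgeR's quasi-likelihood test (version 4.0.16, R 4.3.3), with genes filtered by filterByExpr (minimum count 10) and TMM scaling. P-values were adjusted by the Benjamini-Hochberg method over all genes tested, with a threshold of 0.05. The SE is the size of the log2 fold change over the square root of F. The interaction used all 12 libraries and the symbols in both tables. The scripts were tested on simulated data with as many genes raised as lowered. That setting cannot test the scaling on which the WAT counts depend. Common biological coefficients of variation were 0.319 in WAT, 0.114 in culture and 0.227 in the interaction. Lengths and GC content came from the longest GENCODE transcript per gene on GRCm38 and covered 87.0% of genes tested in WAT, 99.2% in culture and all 78 members. Promoter windows came from RefSeq.

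The members and the lists were chosen with earlier results of these data known. Per comparison the rule named the 8 largest falls and 8 largest rises called, the 3 smallest changes, the 3 highest and 3 lowest levels in WT, members called in opposite directions, the 6 smallest interaction p, all ribosomal proteins with other symbols, and the 1 or 2 smallest p of each other list. Mrpl10, Mrpl27, Mrps11, Mrps12, Sars2 and Eme1, shown for their promoters, Mrpl30 and Mrps14 as examples, and the members not called were named after their values were seen. A gene that the rule takes is not reported here.

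Alternatives were RLE size factors, library size only, a replicate block, no filter on counts, leaving out each library, DESeq2 1.42.0, voom of limma 3.58.1, removal of a length and GC trend (also with the block), 1 fit over all groups, numbered copies summed, a 1.5-fold minimum, and, for culture, removal of mitochondrially encoded genes and thinning.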

Additional observations from a re-analysis of the deposited data

Results flagged for a closer look

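The WAT and the culture effect differed in 75 of the 78 members by the interaction test of edgeR. In that test WAT and culture share 1 estimate of spread, although WAT spread more. The 6 members with the smallest p were Mrps9, with a difference of -1.30 on the log2 scale (SE 0.15, adjusted p = 2.87e-05), Mrps27 at -1.50 (SE 0.17), Mrps15 at -1.60 (SE 0.19), Mrps35 at -1.86 (SE 0.22), Mrps24 at -1.60 (SE 0.20) and Mrpl16 at -1.48 (SE 0.19, adjusted p = 5.85e-05). Each of the 6 kept its call and direction under every alternative run, library size scaling and each left-out library included.

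Mrps9 changed by -1.21 in WAT and 0.12 in culture, Mrps27 by -1.27 and 0.26, Mrps15 by -1.34 and 0.29, Mrps35 by -1.50 and 0.39, Mrps24 by -1.66 and -0.03, and Mrpl16 by -1.21 and 0.31. In WAT all 6 were called lower, and in culture only Mrps35 was called, higher. Tissue and culture also differ in age, cell makeup and the deposited table, which cannot be told apart from the setting.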

How the results depend on the processing

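The scaling moved the WAT counts most: with library size only 25 members were lower and 2 higher, 15 were higher in culture and 40 differed by the interaction. On that scale the WAT log2 fold changes of Fam50a (0.0888), Mrpl18 (0.27), Mrpl19 (0.35, adjusted p = 0.0484), Mrpl20 (0.0392), Mrpl24 (0.0396), Mrpl33 (0.0728), Mrpl42 (0.11), Mrpl46 (0.14), Mrpl48 (0.0141), Mrpl54 (0.0949), Mrps17 (0.00447), Mrps18c (0.0411), Mrps25 (0.23), Mrps31 (0.0193) and Ptcd3 (0.45) changed sign, as did the interaction of Mrpl19 (0.21), Mrpl43 (0.0102) and Mrps25 (0.11). Removal of the trend with length and GC content turned the sign of the WAT changes of Mrpl18 (0.0624), Mrpl46 (0.0485) and Mrpl54 (0.174) (with the replicate block also 0.0582, 0.0518 and 0.163), and of the interaction of Mrpl20 (0.00248) and of Mrpl54 (0.46, or 0.45 with the block). The interaction was then called higher in 1 member with or without the block, and in culture 2 members were lower with both. With numbered copies summed Rps28 was at -0.0911 in WAT. The cause of these changes was not tested. In culture 0 members were called with 1 fit over all groups and 1 with a 1.5-fold minimum. Leaving out 1 library gave 58 to 76 lower members in WAT (0 higher in each fit), 5 to 28 higher in culture (0 lower in each) and 70 to 76 for the interaction; 57 of the 71 WAT calls and 5 of the 23 culture calls were kept in every such fit. Replicate numbers were not taken as pairing the samples. Same-numbered libraries correlated at -0.33, 0.03 and -0.23 in WAT and at 0.18, 0.03 and 0.24 in culture. Differently numbered ones correlated at -0.01 to 0.34 in WAT and at -0.23 to 0.07 in culture. The culture values do not settle whether the numbers pair the libraries. With the replicate block 69 members were lower in WAT, 39 higher in culture and 73 differed by the interaction. RLE size factors, DESeq2, voom and no count filter gave 67 to 74 lower members in WAT and 23 to 29 higher in culture. Sign changes of values that passed in neither fit numbered 55, over 17 results. Depth in culture was lower than in WAT, and thinning the cultures to their smallest total left 24 members higher. With 3 libraries a group, their number limits what either comparison could call. Shares of all genes called are given above for the main fits, library size scaling and removal of the length and GC trend. For the other alternatives they are not given here.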
